A study of Mus musculus with 18 samples.

Results

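RNA sequencing of the cerebral cortex of Alg13 knockout mice was compared between 7 days and 1 day after birth. The comparison took all 3 knockout libraries of each age, which are 6 of the 18 libraries of the series, and covered every gene of the table. The series also holds knockout libraries of day 30 and wild type libraries of days 1, 7 and 30, with 3 in each group. Here the wild type libraries of days 7 and 1 served to test where the same interval differed between the genotypes. The study asked how loss of Alg13 bears on the placement and migration of cortical interneurons. Alg13, an X-linked gene, encodes the catalytic partner of Alg14 in an early step of N-glycan precursor synthesis. The labels name no allele, promoter, strain, sex or treatment for any group, and they give all 18 libraries the same batch. Nothing in them says that the numbered libraries of a group are different animals. The p-values therefore cover the spread among these libraries, which may be technical.

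In the first postnatal week the last neurons of the rodent cortex complete migration and extend dendrites. Synapses and ion channels accumulate, astrocytes and oligodendrocytes mature, and GABA shifts in its action as chloride is pumped out of neurons. Interneurons, which are born outside the cortex and migrate into it, begin to express the peptides and calcium-binding proteins that define their subtypes.

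Levels are in FPKM, a fragment count per length and per library size, and differences are given on the log2(FPKM + 1) scale as day 7 minus day 1. Between 11789 and 12056 genes reached 1 FPKM in each of the 6 libraries, and relative sequencing depth lay between 0.93 and 1.09 of that of the first day 7 library. The table holds no read counts, so absolute depth is unknown. Libraries of the same age correlated across genes at r of 0.988 to 0.997 at day 7 and 0.976 to 0.992 at day 1, against 0.901 to 0.936 between the ages.

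Alg13 RNA measured 1.93, 2.34 and 2.78 FPKM at day 7 and 2.50, 2.57 and 1.04 FPKM at day 1, so the ages overlapped. The log2 difference was 0.18 (SE 0.197, limma adjusted p = 0.477). Knockout day 7 cortex averaged 2.35 ± 0.423 FPKM against 1.80 ± 0.228 FPKM in wild type day 7 cortex (SD, n = 3 each). At day 1 knockout cortex averaged 2.04 ± 0.862 FPKM against 2.67 ± 0.676 FPKM in wild type (SD, n = 3 each). The level of Alg13 RNA therefore gave no check of the genotype labels. Markers of cortical projection neurons were present at both ages. Tbr1, a transcription factor of deep-layer neurons, had 20.5, 22.3 and 20 FPKM at day 7 and 49.8, 45.8 and 47.9 FPKM at day 1. Emx1, a factor of the dorsal telencephalon, averaged 17.6 ± 1.69 FPKM at day 7 and 17.1 ± 2.23 FPKM at day 1 (SD, n = 3 each).

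Library 3 of each age stood apart from the other two. Summed FPKM of 18 striatal marker genes was 63.3, 60.0 and 121 at day 7 and 97.7, 109 and 288 at day 1, with library 3 last in each case. The dopamine-signalling regulator Ppp1r1b alone reached 74.3 FPKM in day 1 library 3, against 20.2 and 25.2 FPKM in the other day 1 libraries. Hippocampal markers summed to 47.6, 51.4 and 90.0 FPKM at day 7 and to 56.3, 50.3 and 80.4 FPKM at day 1. Ttr, a choroid plexus transcript, measured 0.234, 0.277 and 137 FPKM at day 7 and 28.6, 0.176 and 39.2 FPKM at day 1. Xist, which coats an inactive X chromosome, was at 23.8 FPKM in day 1 library 3 and at 0.0378 FPKM or less in the other 5. Ddx3y, a gene of the Y chromosome, measured 2.77 FPKM in that library and 12.9 to 15 FPKM in the other 5. For some of the results that rest on genes of these regions, values without library 3 are given as well.

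**Figure D1:**
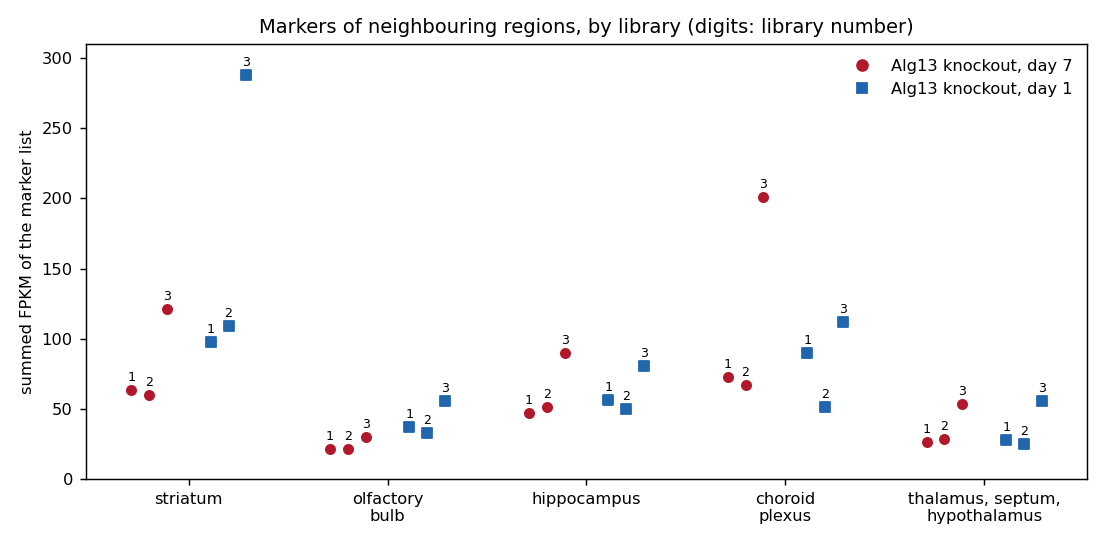
Summed FPKM of marker lists of 5 regions next to the neocortex, 1 point per knockout library with its number above it, day 7 as circles left of day 1 as squares. Library 3 of day 1 carried the highest striatal sum, 288, and library 3 of day 7 the highest choroid plexus sum, 201.

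Cortex of knockout pups changed broadly between the ages. Genes for synapses, ion channels, astrocytes and microglia were higher at day 7, and genes of dividing cells, immature neurons and ribosomes were lower. Of 13347 genes tested, 2577 were higher at day 7, which is 19.3%, and 3923 were lower, which is 29.4% (limma, Benjamini-Hochberg adjusted p under 0.05). Together these are 6500 genes, or 48.7%. A log2 difference of at least 1 was reached by 927 of the rises, 6.95% of genes tested, and by 699 of the falls, 5.24%. The median over all genes tested was -0.08. With a median-of-ratios scaling of the FPKM the split was 3075 higher and 3112 lower, so the excess of falls rests on the scaling. Leaving out library 3 of both ages gave 2214 higher and 3569 lower genes. Leaving out library 3 of wild type day 1, which the shared estimate of spread includes, gave 3222 higher and 4486 lower knockout genes. Of all genes tested, 3606 (27%) had every day 7 library above every day 1 library, and 4801 (36%) had every day 7 library below.

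Among abundant genes the largest rise on the log2(FPKM + 1) scale was that of Lynx1, which encodes a GPI-anchored modulator of nicotinic acetylcholine receptors. It had 57.9, 63.2 and 35.3 FPKM at day 7 and 0.981, 1.67 and 2.72 FPKM at day 1. The log2 difference was 4.25 (SE 0.322, limma adjusted p = 1.4e-07). As a fold of mean FPKM, Slc30a3 (57) and Hapln1 (56.1) rose more than Lynx1 (29.1). Slc30a3, the transporter that loads zinc into synaptic vesicles, had 26.2, 22.4 and 13.6 FPKM at day 7 and 0.152, 0.409 and 0.528 FPKM at day 1. Camk2a, the kinase subunit of excitatory synapses, measured 237, 231 and 175 FPKM at day 7 and 11, 16.1 and 24.7 FPKM at day 1. For all 3 genes day 7 library 3 was the lowest of its age. Further neuronal genes among the 15 largest rises were Thy1 (log2 difference 3.38), the tubulin Tuba4a (3.44), the dendritic adhesion molecule Icam5 (3.16), the dendrite protein Ddn (3.00), Car10 (3.21), Phyhip (3.06) and the exchanger Slc24a2 (3.04). Hapln1, a link protein that ties hyaluronan to proteoglycans in perineuronal nets, had 15.7, 16.3 and 13.7 FPKM at day 7 and 0.331, 0.249 and 0.233 FPKM at day 1. The remaining 4 are known from glia. Slc1a2, the main astrocytic glutamate transporter, had 162, 178 and 121 FPKM at day 7 and 10.5, 10.8 and 10.2 FPKM at day 1. The water channel Aqp4 (log2 difference 3.15), the calcium-binding protein S100b (3.06) and the receptor Gpr37l1 (3.79) rose as well.

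The deepest fall was that of Igfbpl1, a secreted protein of newborn neurons. It had 0.236, 0.185 and 3.22 FPKM at day 7 and 87.4, 56.0 and 86.0 FPKM at day 1. Day 7 library 3 held most of what remained, and the log2 difference was -5.37 (SE 0.528, limma adjusted p = 1.21e-06), or -5.87 without library 3 of both ages. Sox11 and Sox4, transcription factors of differentiating neurons, fell together. Sox11 measured 5.90, 5.40 and 7.84 FPKM at day 7 and 109, 95.7 and 89.6 FPKM at day 1. Sox4 measured 20.1, 19.6 and 25 FPKM at day 7 and 193, 160 and 148 FPKM at day 1. The list of largest falls also held the axon guidance protein Draxin (log2 difference -3.31), the growth-cone proteoglycan Gpc2 (-4.09), the neurogenic factor Insm1 (-3.04) and the RNA-binding protein Mex3a (-2.99). Nuclear and chromatin proteins were Lmnb1 (-2.68), Ezh2 (-2.46) and Zbtb12 (-3.26), and the others were Vash2 (-2.47), Carhsp1 (-2.79), Dusp4 (-2.46) and the polysialyltransferase St8sia2 (-2.41). Rxrg, a retinoid receptor expressed in striatum, had 0.649, 0.584 and 3.68 FPKM at day 7 and 7.69, 9.43 and 33.5 FPKM at day 1. Its log2 difference of -2.67 was -2.56 without library 3 of both ages (limma adjusted p = 0.00259). Rxrg belongs to the striatal marker list, whose sum was high in the same libraries, so that sum is not independent of it. The part of striatal RNA in the fall was not tested.

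**Figure D2:**
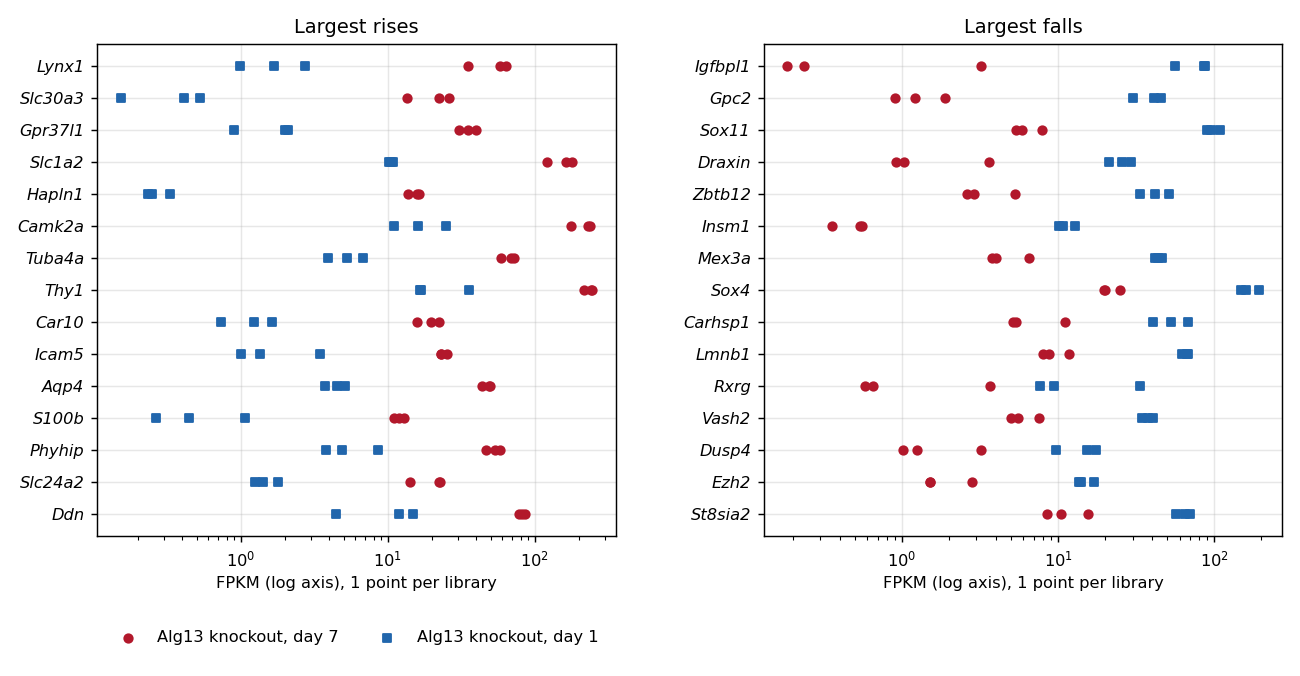
FPKM (log axis) of the 15 largest rises and 15 largest falls among genes with a mean of at least 10 FPKM in the higher age, 1 point per library, day 7 as circles and day 1 as squares. The genes were chosen to have no overlap between the ages, and the day 7 libraries were spread most widely, as highest over lowest, for Igfbpl1.

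Genes of DNA replication and mitosis were lower at day 7. Dividing cells of the early cortex sit in the ventricular and subventricular zones, and glial precursors also divide in the grey matter. Of 33 replication genes tested, 30 fell and 1 rose, with a median of -0.73. Of 41 mitotic genes tested, 38 fell and none rose, with a median of -0.69. Mcm7, a subunit of the replicative helicase, had 4.59, 4.55 and 5.90 FPKM at day 7 and 27.0, 20.2 and 24.2 FPKM at day 1. Chaf1b, a chaperone that loads histones behind the fork, had 0.581, 0.477 and 0.944 FPKM at day 7 and 4.80, 5.27 and 6.59 FPKM at day 1. Rrm2, which makes deoxynucleotides, fell by 1.74 on the log2 scale, the clamp loader Rfc3 by 1.64, Gins1 by 1.56 and the primase Prim1 by 1.29. The exception was Ccne1, cyclin E1, with 5.48, 6.11 and 4.45 FPKM at day 7 and 1.21, 1.79 and 3.23 FPKM at day 1 (log2 difference 1.09, limma adjusted p = 0.000352). E2f1 (0.27) and Ccne2 (0.47) did not pass.

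Most mitotic genes averaged under 10 FPKM at day 1, where the added 1 compresses the log2 scale. With a filter of 5 FPKM, 15 replication and 10 mitotic genes fell. Cdc20, an activator of the anaphase-promoting complex, had 1.29, 1.92 and 1.86 FPKM at day 7 and 6.09, 3.68 and 6.13 FPKM at day 1. Top2a, the topoisomerase that untangles chromosomes, had 4.52, 3.58 and 4.2 FPKM at day 7 and 14.3, 7.62 and 7.33 FPKM at day 1. Day 1 library 1 was the highest for Top2a, and the ages did not overlap. Ncapd2 of condensin fell by 1.4, the kinase Pbk by 1.22, the ubiquitin conjugase Ube2c by 1.21 and cyclin A2 (Ccna2) by 1.03 on the log2 scale. Cdk1, the mitotic kinase, had 1.11, 1.04 and 1.38 FPKM at day 7 and 3.11, 1.70 and 2.60 FPKM at day 1 (log2 difference -0.66, limma adjusted p = 0.00578). Hmmr (0.40), Cenpe (-0.30) and Smc4 (-0.43) did not pass.

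Promoters of these genes are shown because the cell-cycle genes moved together and are known to share short promoter elements. E2F factors bind near the start of replication genes, and mitotic genes carry a cell cycle homology region together with CCAAT boxes. The 3 sequences, from RefSeq in build GRCm38.p6, are given from 5′ to 3′ on the gene's strand. Capitals mark E2F-type matches (TTTCCCGC, TTTGGCGC, TTTCGCGC or TTTGCCGC), the homology region (TTTGAA) and CCAAT, each on either strand. Where a gene had several promoter windows, a window with an E2F-type match was preferred for display. In Mcm7 the second E2F-type match overlaps a CCAAT. The Mcm7 window is chr5:138171834-138172133 on the minus strand, that of Cdk1 chr10:69352863-69353162 on the minus strand and that of Cdc20 chr4:118437294-118437593 on the minus strand.
Mcm7: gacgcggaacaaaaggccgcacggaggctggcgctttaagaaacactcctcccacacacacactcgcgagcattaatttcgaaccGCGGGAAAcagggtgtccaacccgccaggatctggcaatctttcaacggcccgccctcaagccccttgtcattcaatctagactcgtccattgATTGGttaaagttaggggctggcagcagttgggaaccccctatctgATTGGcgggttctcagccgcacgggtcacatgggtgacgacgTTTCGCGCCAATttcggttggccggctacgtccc
Cdk1: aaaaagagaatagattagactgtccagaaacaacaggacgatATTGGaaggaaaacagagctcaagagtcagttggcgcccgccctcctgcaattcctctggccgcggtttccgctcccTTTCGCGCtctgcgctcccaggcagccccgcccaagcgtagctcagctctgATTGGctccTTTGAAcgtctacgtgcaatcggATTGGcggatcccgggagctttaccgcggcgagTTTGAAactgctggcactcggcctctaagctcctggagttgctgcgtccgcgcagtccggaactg
Cdc20: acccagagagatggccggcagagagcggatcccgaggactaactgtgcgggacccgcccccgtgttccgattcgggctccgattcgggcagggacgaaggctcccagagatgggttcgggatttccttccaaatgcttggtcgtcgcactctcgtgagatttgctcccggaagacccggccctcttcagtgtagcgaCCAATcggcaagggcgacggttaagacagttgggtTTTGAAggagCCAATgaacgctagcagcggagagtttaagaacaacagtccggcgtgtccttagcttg
Of 37 promoters of 31 replication genes that matched, 14 held an E2F-type match, which is 37.8%, against 2.26% of all 32851 promoters. Of 34 promoters of 33 mitotic genes, 26 held TTTGAA, which is 76.5%, against 17.9% of all promoters. CCAAT occurred in 79.4% of the mitotic, 56.8% of the replication and 37.4% of all promoters. In the promoters of synaptic vesicle genes the shares were 2.22%, 15.6% and 31.1% for the E2F-type, TTTGAA and CCAAT motifs. These are counts of letters in a window of 300 bases and say nothing of binding.

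Progenitor and early chromatin genes declined alongside. Of 27 genes of radial glia and intermediate progenitors tested, 18 fell and 2 rose, with a median of -0.91. Eomes, a factor of intermediate progenitors, had 0.00759, 0 and 0.350 FPKM at day 7 and 6.72, 2.56 and 9.86 FPKM at day 1. Its log2 difference was -2.59, or -2.38 without library 3 of both ages. Vim, an intermediate filament of radial glia, had 29.9, 24.3 and 32.7 FPKM at day 7 and 110, 52.0 and 83.1 FPKM at day 1. The filament Nes (log2 difference -1.49), the matrix protein Tnc (-1.47) and the corepressor Rcor2 (-1.59) fell. Of 38 genes of DNA methylation and chromatin, 23 fell and 7 rose, with a median of -0.55. Without library 1 of day 7, 4 rose. Ezh2, which methylates histone H3 in Polycomb complexes, had 1.51, 1.52 and 2.81 FPKM at day 7 and 17, 13.7 and 14.1 FPKM at day 1. Dnmt3a, the enzyme known to lay down non-CG methylation in neurons after birth, went the other way. It had 13.6, 13.9 and 12.4 FPKM at day 7 and 4.67, 5.55 and 5.04 FPKM at day 1 (log2 difference 1.23, limma adjusted p = 0.00146). The histone gene H3f3b fell by 1.69 and the neuronal BAF subunits Dpf1 and Ss18l1 fell by 1.47 and 1.25 on the log2 scale.

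Let-7 is a miRNA family known to repress fetal RNA-binding proteins and growth regulators. Of 15 genes of that programme tested, 12 fell and none rose, with a median of -1.07. Igf2bp2, an mRNA-binding protein, had 0.460, 0.561 and 0.677 FPKM at day 7 and 4.52, 4.77 and 5.18 FPKM at day 1. Igf2bp1 had 0.0196, 0.00981 and 0.0655 FPKM at day 7 and 1.51, 1.13 and 1.08 FPKM at day 1. The ages lay well apart for both. Msi1 fell by 1.79, Hmgb2 by 1.54, Mycn by 1.32 and Hmgn2 by 1.26 on the log2 scale. Of 6 miRNA host genes tested, 3 fell and 1 rose, against 29.4% and 19.3% of all genes. The 6 were chosen after their values were seen. Mir100hg averaged 6.10 FPKM at day 7 and 30.0 FPKM at day 1 (log2 difference -2.07, limma adjusted p = 2.21e-06). Its span in RefSeq, build GRCm38.p6, holds the hairpins of miR-100 and miR-125b-1 and of let-7a-2. Mir22hg averaged 8.88 FPKM at day 7 and 2.66 FPKM at day 1 (log2 difference 1.44, limma adjusted p = 0.00395) and holds miR-22. Mature sequences of these hosts follow, with the seed in capitals, to show that the falling and the rising host carry different seeds. All are on the plus strand, miR-100-5p at chr9:41531437-41531458, miR-125b-5p at chr9:41581940-41581961 and miR-22-3p at chr11:75463772-75463793.
mmu-miR-100-5p: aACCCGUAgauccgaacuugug
mmu-miR-125b-5p: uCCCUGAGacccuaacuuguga
mmu-miR-22-3p: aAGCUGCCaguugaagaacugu
Only the host transcripts were measured, not the mature miRNAs.

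Genes of immature and migrating neurons were mostly lower at day 7. Of 44 tested, 27 fell and 4 rose, with a median of -0.73. Dcx, the microtubule protein of migrating neurons, had 78.3, 73.7 and 86.8 FPKM at day 7 and 258, 248 and 187 FPKM at day 1. Cntn2, an axonal adhesion molecule, had 10.7, 10.1 and 9.56 FPKM at day 7 and 61.4, 51.7 and 46.1 FPKM at day 1. Nnat, an imprinted gene of neuronal differentiation, had 91.0, 94.3 and 424 FPKM at day 7 and 669, 538 and 1330 FPKM at day 1, and library 3 was the highest at each age. Its log2 difference of -2.34 was -2.68 without library 3 of both ages. The 4 that rose were Dclk1 (0.54), Tubb2a (0.51), Gpm6a (0.41) and the RNA-binding protein Elavl4 (0.40). The abundant growth-cone gene Gap43 did not pass, at 863 ± 112 FPKM at day 7 and 703 ± 99.0 FPKM at day 1 (SD, n = 3 each). With quantile normalization 17 of the 44 fell, and without day 7 library 2 none rose.

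Most genes of excitatory neuron identity were lower at day 7, and the vesicular glutamate transporters were higher. Of 35 such genes, 21 fell and 3 rose, with a median of -0.72. Slc17a7, which loads glutamate into vesicles, had 219, 238 and 210 FPKM at day 7 and 20, 28.5 and 48.3 FPKM at day 1 (log2 difference 2.83, limma adjusted p = 1.96e-07). Neurod6, a bHLH factor of projection neurons, had 61.7, 58.1 and 82.3 FPKM at day 7 and 357, 266 and 228 FPKM at day 1. Neurod2 fell by 1.82, Bcl11b by 1.57 and Nfib by 1.52 on the log2 scale. For Bcl11b library 3 was the highest of each age, at 8.34 FPKM at day 7 and 26.5 FPKM at day 1. The other rises were Slc17a6 (0.78) and Mef2c (0.71).

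Genes of both sides of the synapse rose. Of 50 genes of synaptic vesicles and release, 42 rose and 1 fell, with a median of 1.08. Syt1, the calcium sensor of fast release, had 315, 330 and 270 FPKM at day 7 and 78.5, 84.4 and 79.7 FPKM at day 1. Nsf, the ATPase that takes SNARE complexes apart, had 125, 129 and 131 FPKM at day 7 and 28.5, 35.7 and 34.9 FPKM at day 1. Within each age the libraries were close, and the gap between the ages was far wider than their spread. Syt13 (2.10), Syn2 (1.98), Sv2b (1.93) and Cplx3 (1.90) had similar log2 differences. The 1 fall was that of Syt4 (log2 difference -0.46, limma adjusted p = 0.0478), whose day 1 library 3 overlapped day 7.

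Postsynaptic genes changed likewise. Of 35 genes of the postsynaptic density, 31 rose and 1 fell, with a median of 0.83. Without library 1 of day 7, 22 rose, and without library 3 of both ages, 24 rose. Nrgn, a calmodulin-binding protein of dendrites, had 811, 847 and 614 FPKM at day 7 and 82.3, 153 and 172 FPKM at day 1. Synpo of the spine apparatus rose by 1.72 on the log2 scale. The scaffold Homer3 was the fall, with 2.19, 2.00 and 3.13 FPKM at day 7 and 7.55, 8.38 and 8.91 FPKM at day 1. Of 34 glutamate receptor genes, 21 rose and 1, the kainate receptor Grik2 (-0.95), fell, with a median of 0.66. Grin1, the obligatory NMDA receptor subunit, had 70.0, 73.8 and 65.6 FPKM at day 7 and 17.1, 22.5 and 25.8 FPKM at day 1. The auxiliary subunit Cacng3 (1.69), Grm7 (1.59), Olfm3 (1.55) and Grin2d (1.24) rose. The AMPA receptor subunits Gria1 (0.42) and Gria2 (0.15) did not pass.

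Of 53 sodium, potassium and HCN channel genes, 38 rose and 2 fell, with a median of 0.99. Kcnj9, a G-protein-gated potassium channel, had 27.1, 28.8 and 18 FPKM at day 7 and 1.47, 3.60 and 2.49 FPKM at day 1. Scn2b, an auxiliary sodium channel subunit, had 19.9, 20.5 and 13.9 FPKM at day 7 and 2.33, 3.01 and 1.81 FPKM at day 1. Kcnh3 (1.91) and Kcna2 (1.88) rose as well. Scn9a (-1.19) and Hcn4 (-0.98) fell. Of 26 genes of neurofilaments and the axonal cytoskeleton, 11 rose and 3 fell, with a median of 0.34. Nefh, the heavy neurofilament, had 10.1, 10.5 and 6.06 FPKM at day 7 and 0.346, 0.734 and 0.931 FPKM at day 1. Map1a rose by 2.42, Tppp by 2.35, Nefl by 1.91 and Nefm by 1.67 on the log2 scale.

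Subunit and transporter pairs that are known to exchange during maturation were read as ratios within each library, which do not depend on the library's scaling. Grin2a over Grin2b, the mature over the juvenile NMDA receptor subunit, was 0.152, 0.147 and 0.105 at day 7 and 0.0309, 0.0273 and 0.0475 at day 1. Slc12a5 over Slc12a2, the chloride exporter over the importer, was 7.08, 8.05 and 5.07 at day 7 and 0.682, 0.961 and 1.94 at day 1. Neither ratio overlapped between the ages, and library 3 gave the lowest value of day 7 for both. Scn8a over Scn3a averaged 2.60 ± 0.543 at day 7 and 0.905 ± 0.271 at day 1 (SD, n = 3 each). Actl6b over Actl6a, the neuronal over the progenitor BAF subunit, averaged 10.1 ± 0.489 at day 7 and 5.92 ± 0.546 at day 1 (SD, n = 3 each), although Actl6b itself was lower at day 7 (log2 difference -0.47). All 4 ratios were higher at day 7 without overlap, each at a two-sided exact permutation p of 0.1, the smallest that 3 against 3 libraries allow. Over the 4 ratios none can pass an adjustment.

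**Figure D3:**
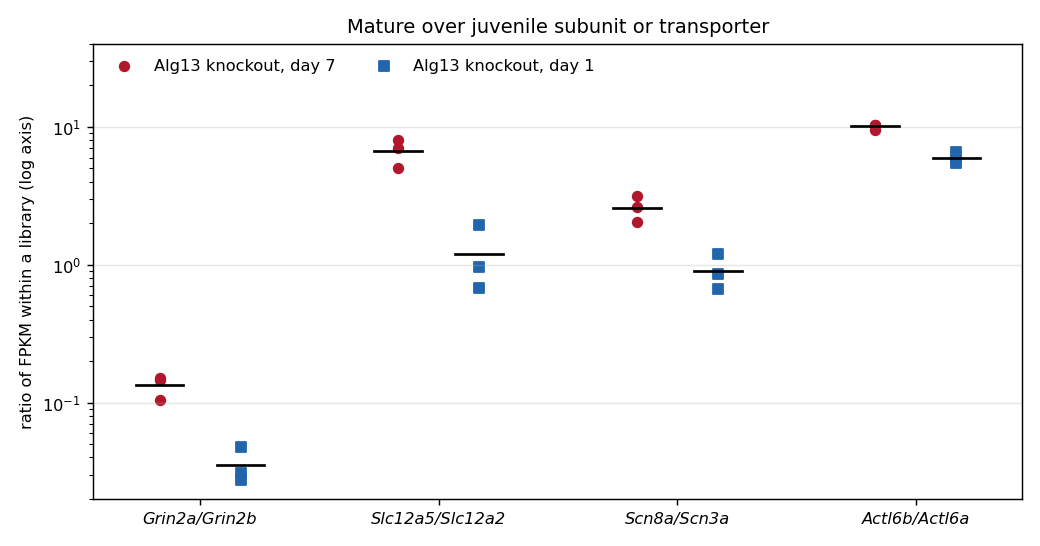
Ratio of FPKM within a library (log axis) for 4 gene pairs, 1 point per knockout library, day 7 as circles left of day 1 as squares, with bars at the means. All day 7 points lay above all day 1 points of the same pair.

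Most genes of inhibitory synapses rose. Of 29 genes of GABA receptors and inhibitory synapses, 20 rose and 1, Kctd12 (-0.84), fell, with a median of 0.81. The GABA-B auxiliary subunit Kctd16 had 18.5, 18.4 and 8.65 FPKM at day 7 and 0.871, 1.70 and 0.899 FPKM at day 1. Slc12a5 rose by 2.24, the extrasynaptic subunit Gabrd by 2.08, Gabra4 by 1.91 and Gabrb1 by 1.73 on the log2 scale. Slc12a2 did not pass (log2 difference -0.23).

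Of 12 genes of GABA synthesis, packaging and uptake, 8 rose and 2 fell, with a median of 0.75. The transporter Slc6a11, which clears GABA into astrocytes, rose by 1.26 on the log2 scale. Glul (1.39), Abat (1.27) and Aldh5a1 (0.75) metabolise glutamate and GABA. The glutamine carriers Slc38a1 (-0.72) and Slc38a2 (-0.74) fell. Without library 3 of day 7, 5 of the 12 rose. The enzymes that make GABA are Gad1 and Gad2. Gad2 had 11.2, 11.7 and 14.3 FPKM at day 7 and 6.73, 5.55 and 7.85 FPKM at day 1 (log2 difference 0.80, limma adjusted p = 0.0417). Its log2 difference was 0.70 without library 3 of day 7 (limma adjusted p = 0.119). Gad1 had 19.3, 20 and 28.9 FPKM at day 7 and 13.7, 14.2 and 26.2 FPKM at day 1, with overlap from library 3 of day 1 (log2 difference 0.36, limma adjusted p = 0.367). In whole tissue, fewer cells of a type and less RNA per cell cannot be told apart.

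Of 21 interneuron lineage transcription factors, 10 fell and 2 rose, with a median of -0.65. Dlx2, which specifies GABAergic neurons, had 2.09, 1.54 and 2.62 FPKM at day 7 and 12.5, 9.27 and 18.8 FPKM at day 1. Dlx1 had 8.65, 8.99 and 11.2 FPKM at day 7 and 35.3, 30.8 and 46.2 FPKM at day 1. Lhx6, the factor of interneurons from the medial ganglionic eminence, had 7.93, 8.33 and 10.5 FPKM at day 7 and 21.3, 24.2 and 22.8 FPKM at day 1. Dlx5 (-1.68), Sp9 (-1.54) and the RNA Dlx6os1 (-1.50) fell, as did Sp8 (-1.08) and Npas1 (-0.59). The rises were Mef2c (0.71) and Satb1 (0.63), neither of them restricted to interneurons, and neither passed without library 3 of day 1. Striatal neurons share several of these factors, and the striatal markers were highest in day 1 library 3. With library 3 of both ages left out, 11 fell and 2 rose. The log2 differences of Dlx1, Dlx2 and Lhx6 were then -1.79, -2.07 and -1.38 (limma adjusted p = 0.00125, 0.000955 and 0.000251). Those of Dlx5 and Sp9 were -1.48 and -1.35 (limma adjusted p = 0.0118 and 0.0193).

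Subtype markers did not move as a block. Of 28 tested, 13 rose and 4 fell, with a median of 0.48. Vip, a peptide of disinhibitory interneurons, had 11.3, 11 and 5.60 FPKM at day 7 and 0.453, 0.477 and 0.167 FPKM at day 1. Lamp5, known from neurogliaform cells, had 13.7, 14.7 and 7.28 FPKM at day 7 and 0.316, 0.600 and 1.32 FPKM at day 1. Tac2 (1.79), Cox6a2 (1.78), the calcium buffer Calb1 (1.76), Cck (1.49), Crhbp (1.44) and Crh (1.02) rose. Several of these, Cck and Calb1 among them, are also made by excitatory neurons. Npy went down, with 64.3, 67.1 and 73.1 FPKM at day 7 and 153, 204 and 301 FPKM at day 1 (log2 difference -1.62, limma adjusted p = 5.92e-05). Without library 3 of both ages its log2 difference was -1.41 (limma adjusted p = 0.000955). Htr3a (-1.57), Cnr1 (-1.09) and Nos1 (-0.81) were the other falls. Sst had 76.2, 86.2 and 145 FPKM at day 7 and 42.9, 52.9 and 147 FPKM at day 1, and library 3 was highest at both ages. Its log2 difference of 0.50 did not pass (limma adjusted p = 0.32). It was 1.03 without library 3 of day 1 (limma adjusted p = 0.0219), 0.22 without library 3 of day 7 (0.712) and 0.75 without both (0.0893). Pvalb, which appears late in fast-spiking cells, was at 0.456 FPKM or less in all 6 libraries.

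**Figure D4:**
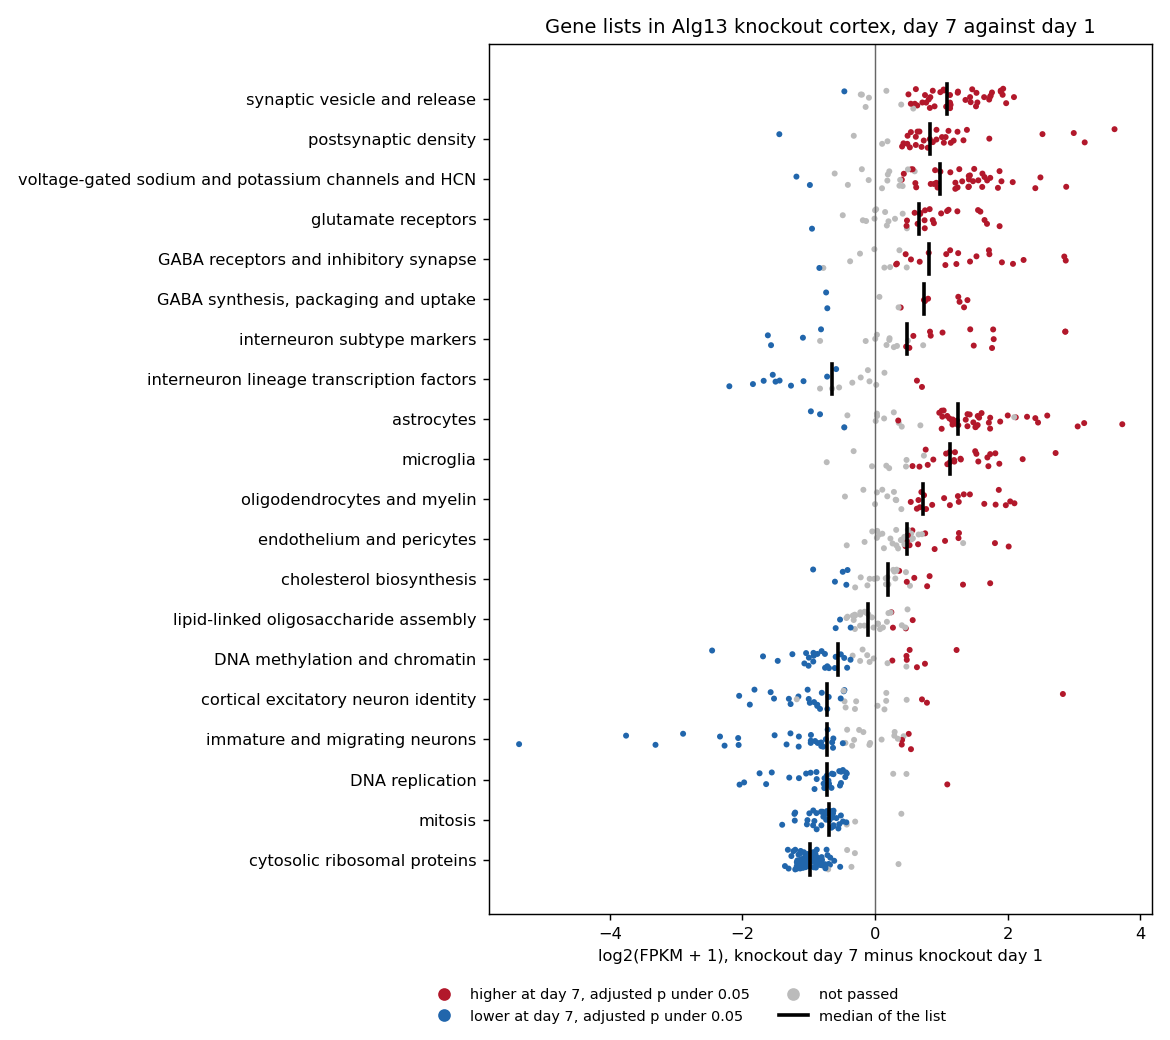
Log2(FPKM + 1) difference of knockout day 7 minus knockout day 1 for each tested gene of 20 lists, with bars at the list medians. Synaptic, glutamate receptor, channel, astrocyte and microglia lists had medians between 0.66 and 1.25, and replication, mitosis and ribosomal lists had medians between -0.99 and -0.69. Red points passed as higher at day 7, blue points passed as lower and grey points did not pass.

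Glial genes rose. Of 52 astrocyte genes, 38 rose and 3 fell, with a median of 1.25, and their summed FPKM was 3920, 4080 and 4000 at day 7 and 1520, 1460 and 1880 at day 1. Gfap, the astrocytic filament, had 16, 16.6 and 22.4 FPKM at day 7 and 2.43, 2.22 and 2.81 FPKM at day 1. The neurotensin receptor Ntsr2 rose by 2.60 and the potassium channel Kcnj10 by 2.42 on the log2 scale. The falls were the gliogenic factors Nfia (-0.83) and Sox9 (-0.46), and Thbs1 (-0.97). Of 32 microglial genes, 24 rose and none fell, with a median of 1.13. P2ry12, the purinergic receptor of resting microglia, had 17.9, 20.1 and 11 FPKM at day 7 and 1.37, 1.77 and 1.53 FPKM at day 1. Cx3cr1 (2.23), Csf1r (1.88), P2ry13 (1.81) and Ctss (1.71) rose, and Apoe (1.74), which astrocytes also make, rose too.

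Of 30 oligodendrocyte and myelin genes, 20 rose and none fell, with a median of 0.72. Mbp, a protein that compacts myelin, had 14.7, 21.1 and 17 FPKM at day 7 and 3.76, 3.94 and 4.45 FPKM at day 1. Library 2 was the highest of day 7, and the ages did not overlap. Gpr17 (2.04), Bcas1 (1.97), Cnp (1.82) and Mag (1.65) rose. Of 19 precursor genes, 10 rose and 1, the proteoglycan Vcan (-1.26), fell, with a median of 0.49. With a filter of 5 FPKM 5 rose, without library 3 of both ages 7, and in a fit of the 6 knockout libraries 12. Susd5 (2.22) and Neu4 (1.12) were among the rises.

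Of 37 endothelial and pericyte genes, 13 rose and none fell, with a median of 0.48. There were 8 rises without library 3 of both ages and 21 without library 3 of wild type day 1, which the shared estimate of spread includes. Slc16a1, a carrier of lactate and ketone bodies, had 33.4, 31.1 and 28.5 FPKM at day 7 and 5.86, 8.60 and 6.47 FPKM at day 1. Slco1a4 of the blood-brain barrier rose by 1.81 and Rgs5 of pericytes by 1.26 on the log2 scale. Of 35 genes of meninges, fibroblasts and matrix, 6 rose (17.1%) and 3 fell (8.57%), against 19.3% and 29.4% of all genes. The list median was 0.33, and the deepest fall was that of Nnat (-2.34), which is also counted among the immature neuron genes. Without library 3 of wild type day 1, 10 rose, and without day 7 library 1 or library 2, 4 rose. Of 20 genes of perineuronal nets and neural matrix, 8 rose and 4 fell, with a median of 0.36. Besides Hapln1, Spock3 (2.21), Cd44 (1.14) and Bcan (1.09) rose, and Tnc and Vcan fell.

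Fuel metabolism genes changed in part. Of 36 genes of glucose uptake, glycolysis and lactate, 20 rose and 2 fell, with a median of 0.45. Eno2, the neuronal enolase, had 82.8, 83.4 and 77.9 FPKM at day 7 and 19.3, 21.0 and 32.8 FPKM at day 1. Oxct1, which opens ketone body oxidation, had 256, 262 and 239 FPKM at day 7 and 93.8, 90.5 and 94.8 FPKM at day 1. The 13 mitochondrially encoded genes all had positive differences, 8 of them past the threshold, with a median of 0.59. With TPM scaling 12 rose, without library 3 of both ages 5, and without a filter on low values 1. They took 14.1%, 13.8% and 12.8% of all FPKM at day 7 and 8.63%, 8.98% and 7.35% at day 1 (two-sided exact permutation p = 0.1, n = 3 each). Of 48 nuclear respiratory chain genes 3 rose and none fell, with a median of 0.15. They were Ppargc1a (1.01), a coactivator of mitochondrial biogenesis, Cox8a (0.80) and Ndufs1 (0.45). There were 8 rises without library 3 of day 1 and 15 without library 3 of wild type day 1.

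Ribosomal protein genes fell as a group. Of 80 tested, 75 fell and none rose, with a median of -0.99. Rplp0, of the ribosomal stalk, had 293, 285 and 352 FPKM at day 7 and 736, 636 and 971 FPKM at day 1. Library 3 was the highest of each age. These genes together took 5.66%, 5.84% and 6.35% of all FPKM at day 7 and 10.3%, 9.11% and 12.6% at day 1 (two-sided exact permutation p = 0.1, n = 3 each). The 5 that did not pass were Rpl22l1 (0.35), Rpl41 (-0.30), Rplp1 (-0.36), Rps2 (-0.42) and Rps27l (-0.71). With library 3 of both ages left out, 71 fell, with a median of -0.87. Many ribosomal protein genes have processed copies, and the sharing of fragments among them is not stated in the sources.

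Activity-dependent immediate-early genes went both ways, with 13 of 26 rising and 4 falling and a median of 0.52. Egr3, a zinc-finger factor, had 17.3, 16.2 and 11 FPKM at day 7 and 1.31, 2.36 and 3.62 FPKM at day 1. Egr4 (1.73), Arc (1.19), Egr1 (1.08), Nptx1 (0.99) and Vgf (0.98) rose. Dusp1 (-0.83), Sik1 (-0.79), Fosl2 (-0.69) and Nr4a3 (-0.61) fell, and Fos (0.32) did not pass. There were 8 rises without library 3 of day 7. Of 54 genes of neuronal migration and guidance, 16 rose and 15 fell, with a median of -0.05 against -0.08 over all genes, of which 19.3% rose and 29.4% fell. Without library 3 of day 1, 10 rose, and without library 1 of day 7, 9 rose. Cdk5r2, an activator of Cdk5, rose by 1.83 and Slit3 by 1.42, while Sema3f fell by 1.47, Epha3 by 1.33, Dab1 of the reelin pathway by 1.29 and the chemokine receptor Cxcr4 by 1.28 on the log2 scale. Of 22 imprinted genes of the growth network, 6 rose (27.3%) and 2, Nnat and Cdkn1c (-2.41), fell (9.09%), with a median of 0.22. The shares of all genes were 19.3% and 29.4%. There were 4 rises without a filter on low values, without library 3 of day 7 or without library 3 of both ages. A fit of the 6 knockout libraries gave 7.

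Alg13 acts in the assembly of lipid-linked oligosaccharides. Lipid-linked oligosaccharide assembly builds the sugar tree that is moved onto proteins in the endoplasmic reticulum. Of its 33 genes tested, 4 rose and 3 fell, against 19.3% and 29.4% of all genes, with a median of -0.10. Without library 3 of wild type day 1, 7 rose and 8 fell, and without library 1 of knockout day 1, 2 rose and 1 fell. Alg14, which anchors Alg13 to the membrane, averaged 6.95 FPKM at day 7 and 4.83 FPKM at day 1, and its log2 difference of 0.46 did not pass. The sugar-phosphate enzymes Mpi (0.57) and Pmm1 (0.46) and the dolichol enzymes Dolk (0.27) and Nus1 (0.25) rose. Alg5 (-0.59), Pgm3 (-0.53) and Alg9 (-0.37) fell. Of 45 genes of oligosaccharide transfer and glycan processing, 8 rose (17.8%) and 8 fell (17.8%), with a median of 0.05. Both shares were under those of all genes. There were 2 rises without library 3 of both ages and 4 without library 3 of day 7. The 2 sialyltransferases with the deepest falls were St8sia2 and St6gal1. St8sia2, which puts polysialic acid on NCAM in the developing brain, had 10.4, 8.51 and 15.6 FPKM at day 7 and 65.0, 70.4 and 56.9 FPKM at day 1. St6gal1 had 2.45, 2.78 and 3.58 FPKM at day 7 and 13.9, 8.92 and 7.99 FPKM at day 1. St3gal6 (0.95) and the branching enzyme Mgat5 (0.64) rose. Of 33 genes of the unfolded protein response, 2 rose (6.06%) and 5 fell (15.2%), again under the shares of all genes. The median was 0.01, and none fell without library 1 of day 1. None rose without library 2 of day 7, and 6 rose without library 3 of wild type day 1. The stress sensors Ern1 and Eif2ak3 fell by 0.51 and 0.46 on the log2 scale. Hspa5, the main chaperone of the compartment, had 96.4, 96.3 and 95.0 FPKM at day 7 and 84.5, 79.2 and 78.2 FPKM at day 1 (log2 difference 0.25, limma adjusted p = 0.363).

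The same interval in wild type cortex rested on other libraries, though the fits share an estimate of spread. In wild type 2787 genes were higher at day 7, which is 20.9%, and 3741 were lower, which is 28%. Of the 6500 genes called in knockout, 4791 were also called in wild type in the same direction, which is 73.7% of the knockout calls and 73.4% of the 6528 wild type calls. No gene was called in opposite directions. The difference between the intervals, tested gene by gene, passed for no gene in the positive direction and for 1 gene, Ldoc1, in the negative direction (limma, 0% and 0.00749% of genes tested). Without adjustment, 1681 genes had p under 0.05.

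Ldoc1, a small gene of retrotransposon origin on the X chromosome, had 1.92, 1.99 and 2.45 FPKM in knockout at day 7 and 1.86, 2.17 and 2.39 FPKM in knockout at day 1. In wild type it averaged 3.46 ± 0.458 FPKM at day 7 and 0.905 ± 0.0960 FPKM at day 1 (SD, n = 3 each). The log2 difference was -0.01 in knockout and 1.22 in wild type, and their difference was -1.23 (SE 0.161, limma adjusted p = 0.0122). For this difference from wild type, the call on Ldoc1 was lost without day 7 library 1, day 1 library 2 or day 1 library 3 of knockout, and without day 7 library 3 of wild type, at adjusted p-values of 0.0787, 0.063, 0.0504 and 0.0526 in that order. Xist was at 0.0650, 157 and 39.4 FPKM in wild type day 1, where Ldoc1 was at 0.894, 1.01 and 0.814 FPKM.

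Cholesterol and immature neuron genes are set out for both genotypes because many of their members had an unadjusted p under 0.05 for the difference. In knockout 7 of 29 genes of the cholesterol list rose (24.1%) and 5 fell (17.2%), against 19.3% and 29.4% of all genes. This list is not limited to enzymes of synthesis, and Apoe, Cyp46a1 and Stard4 are among its rises. The list median was 0.20. In wild type 17 rose and 1 fell, against 20.9% and 28% of all genes, with a list median of 0.69. The 5 falls in knockout became 1 without day 7 library 1 or library 2, 3 without day 1 library 1 and 2 without day 1 library 3. With median-of-ratios scaling 11 rose and 1 fell. Hmgcs1, at the entry of the pathway, averaged 252 FPKM at day 7 and 201 FPKM at day 1 in knockout (log2 difference 0.33, limma adjusted p = 0.163). In wild type it averaged 281 FPKM at day 7 and 145 FPKM at day 1 (log2 difference 0.97, limma adjusted p = 0.00054). Mvd of the mevalonate pathway averaged 23.3 ± 2.48 FPKM at day 7 and 23.9 ± 5.76 FPKM at day 1 in knockout, against 28.6 ± 3.96 FPKM at day 7 and 14.7 ± 1.08 FPKM at day 1 in wild type (SD, n = 3 each). In knockout Apoe (1.74), Cyp46a1 (1.33), Stard4 (0.82) and Tm7sf2 (0.79) rose, and Acat2 (-0.93), Fdps (-0.60), Lss (-0.49), Srebf1 (-0.43) and Fdft1 (-0.41) fell. No gene of the list passed the test of the difference, for which the smallest adjusted p was 0.337. An unadjusted p under 0.05 was found for 12 of the 29, against 1681 of all 13347 genes tested.

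For immature and migrating neurons the medians were -0.73 in knockout and -0.21 in wild type. In knockout 4 of 44 genes rose and 27 fell, against 11 and 14 in wild type. Of all genes tested, 19.3% rose and 29.4% fell in knockout, and 20.9% and 28% in wild type. Summed FPKM of the 45 genes listed was 17900, 18100 and 21900 in wild type day 7, with library 3 last. In knockout day 7 it was 14600, 14600 and 17600, again with library 3 last. At day 1 the sum was 20700, 23600 and 15200 in wild type and 23600, 22900 and 27900 in knockout, in the same order. The part of wild type day 7 library 3 in the wild type median was not tested. Tubb3, a neuronal tubulin, averaged 720 ± 86.7 FPKM at day 7 and 1180 ± 170 FPKM at day 1 in knockout (SD, n = 3 each; log2 difference -0.71), and 968 FPKM at day 7 and 1000 FPKM at day 1 in wild type (log2 difference -0.02). None of the 44 passed the test of the difference, with a smallest adjusted p of 0.337. An unadjusted p under 0.05 was found for 19, against 1681 of all 13347 genes tested. Library 3 of wild type day 1 carried RNA of other tissues, with a summed FPKM of 35900 over 12 salivary gland genes against 25.8 or less in the knockout libraries. Without it the wild type medians were -0.40 for immature neurons and 0.78 for cholesterol genes. The median over all genes moved to -0.04 in wild type. Of the 44 immature neuron genes, 7 then rose and 30 fell in knockout, against 11 and 21 in wild type. An unadjusted p under 0.05 for the difference was then found for 15, against 1976 of all 13347 genes tested. No list was tested as a whole.

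**Figure D5:**
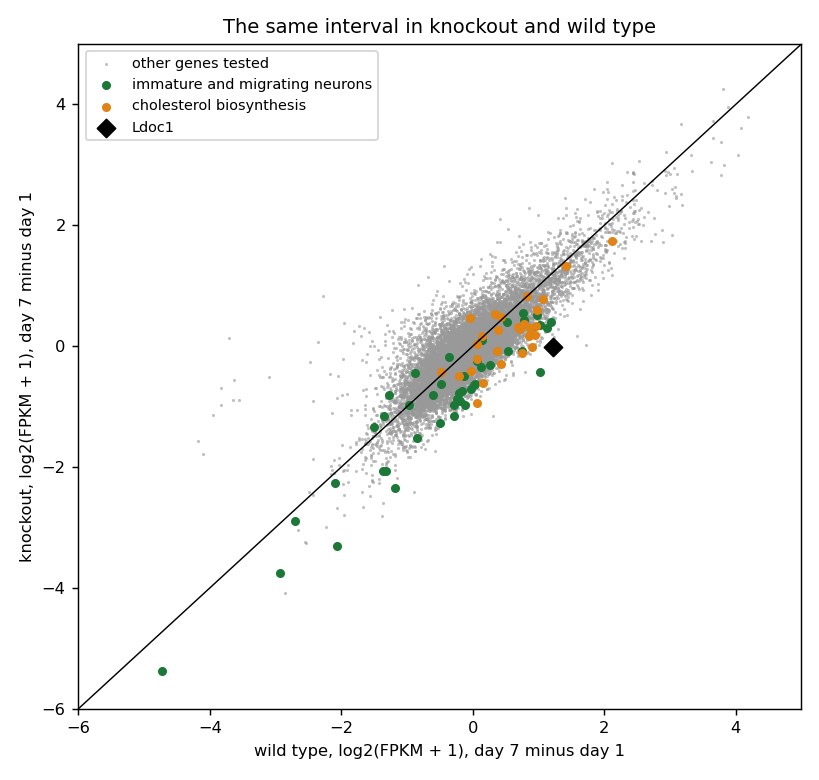
Log2(FPKM + 1) difference of day 7 minus day 1 in knockout (vertical) against the same in wild type (horizontal), 1 point per gene tested, with the line of equal change. Most genes lay along the line, Ldoc1 lay below it at -0.01 against 1.22, and many immature neuron and cholesterol genes lay below it without passing the test of the difference.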

How the data were processed

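RNA from cerebral cortex was sequenced in 18 libraries, 3 per genotype and age. The authors deposited FPKM per gene and library for 28852 genes, without pooling. Bowtie2, RSEM 1.3.1, DESeq2 1.4.5 and build GRCm39 are named, without roles, in the submitters' processing notes. No source states strandedness or annotation. The extract protocol of the labels names a kit that splits RNA from DNA. FPKM is relative to each library's total, so a rise of abundant transcripts lowers the rest.

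Values were taken as log2(FPKM + 1), which understates changes of low genes. Genes with at least 1 FPKM in at least 3 libraries were kept, 13347 in all. The fit, by limma 3.58.1 (R 4.3.3), had 6 group means, all 18 libraries and the mean-variance trend. Contrasts were day 7 minus day 1 in knockout, in wild type, and their difference, with Benjamini-Hochberg adjustment over all genes and a threshold of 0.05. Adjusted p-values are two-sided. Data were simulated for knockout day 7 against day 1 over 13347 genes. Of 96 genes changed by 1 on the log2 scale 80.2% were recovered, and of 86 changed by 2, 98.8%. Nearly all other genes were simulated without change, while 48.7% of genes were called in the data. The adjustment was therefore stricter in the simulation, and its rates are not those of the real comparison. Noise was drawn independently for each gene and library, without an effect shared across a library. These rates therefore do not cover libraries that carry RNA of other regions. Relative depth came from the spacing of FPKM under 0.15, set against the first knockout day 7 library.

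The comparison, gene lists and rules were chosen with earlier results of these data known. Named were Alg13, the 15 largest rises and falls among genes called with a mean of at least 10 FPKM in the higher age and no overlap, up to 6 called members of each list, the members needed to account for a count, and genes called in the difference. Any other gene named, passed or not, was chosen after its values were seen. Some members counted in the lists are not reported here by name. Lists are described by counts and medians. Of all genes tested 19.3% rose and 29.4% fell in knockout, with a median of -0.08.

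Same-numbered knockout libraries of both ages deviated from their group means with correlations of 0.14, 0.23 and 0.29 across genes, which the rule used counts as pairing, although day 7 library 1 correlated more with day 1 library 2 (0.33). The values reported have no block. With a replicate block, 2561 genes were higher and 3893 lower. Promoter and miRNA sequences came from RefSeq tables of build GRCm38.p6, matched by symbol, and no coordinates were converted. Alternatives were other pseudocounts, filters, scalings, library sets and limma settings, and each library left out.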

Additional observations from a re-analysis of the deposited data

Results flagged for a closer look

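Ldoc1 had an interval that differed between the genotypes by the test of the difference itself, at -1.23 on the log2 scale for knockout minus wild type (limma adjusted p = 0.0122, n = 3 libraries per group). In knockout the ages overlapped, and in wild type day 7 averaged 3.46 FPKM against 0.905 FPKM at day 1. The gene is low in every group, and the cause of the difference was not tested.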

How the results depend on the processing

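The counts of rises and falls in knockout stayed within 1.5 times under every alternative run, from 1952 to 3222 rises and from 2976 to 4486 falls, and no gene called was called in the opposite direction. The replicate block (2561 rises, 3893 falls, and 1 gene in the difference) changed no count by over 1.5 times. Genes with a more negative interval in knockout numbered 0 with a pseudocount of 0.1, 2 without a filter, 0 with a filter of 5 FPKM and 0 in a fit of the 12 day 1 and day 7 libraries, against 1. Leaving out a library gave 0 to 25 such genes and 0 to 15 with a more positive interval, and both highest values came without wild type day 1 library 2. The cause was not tested.

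Signs turned only near 0 among values given. The median of the unfolded protein response list was -0.01 without a filter and -0.01 with the stricter filter, and -0.06 to 0.02 without a library. That of migration genes was 0.02 with TPM scaling, 0.05 with median-of-ratios scaling and 0.00 with quantile normalization, that of lipid-linked oligosaccharide assembly 0.01 with median-of-ratios scaling, and that of glycan processing 0.00 to 0.08 without a library, lowest without knockout day 1 library 2. In knockout the log2 difference of Ldoc1 was 0.05 with TPM and 0.07 with median-of-ratios scaling and -0.08 to 0.05 without a library. That of Alg13 was -0.09 to 0.32 without a library, lowest without day 1 library 3, and -0.18 without library 3 of both ages, an alternative added after seeing the data. Genes under 1 FPKM were mostly not tested, and unknown depth limits what low values show.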
